A study of Drosophila melanogaster with 6 samples.

Results

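The 9 genes described here encode integrin subunits of the fruit fly Drosophila melanogaster and proteins that tie integrins to actin. They are the beta subunit gene mys, the alpha subunit genes mew, if and scb, and the adaptor genes rhea, Ilk, parvin, stck and Vinc. They were taken by name, and all 9 were found among the 11982 genes that have a probe set of their own on the Affymetrix Drosophila Genome 2.0 array. A probe set is a group of short probes whose signals are combined into a single value. The 9 genes have 11 probe sets among the 18769 tested, since mys and mew have a pair each. The probe set with the highest mean over the 6 arrays stands for its gene, and the other is given beside it. Total RNA came from whole embryos of 2 genotypes with 3 arrays each. The control was the Oregon R wild-type line, and the foxL1 null embryos came from flies with the deletion allele foxL1del over the allele foxL1cr, which the genotype label spells foxLCr. Both groups were labelled as stages 11 to 15, after egg laying for 8 h and ageing for another 11 h at room temperature. By the usual timetable of fly embryogenesis that window may run past the labelled stages, and the part of embryo age in any value was not tested. The labels call the samples of each genotype independent biological samples. The genotypes are separate lines, so that genotype and line cannot be told apart, and fewer cells of a type cannot be told apart from less RNA per cell in whole embryos.

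Integrins are receptors made of an alpha and a beta subunit that hold cells to the extracellular matrix. The protein of mys (myospheroid) pairs with the products of mew (multiple edematous wings), if (inflated) and scb (scab). Inside the cell talin, the product of rhea, binds the beta tail, and vinculin (Vinc) binds talin and actin. The products of Ilk (integrin-linked kinase), stck (steamer duck, the fly PINCH) and parvin form a complex of their own at the same sites. In the embryo these proteins anchor muscles to tendon cells, and they also serve germ band retraction, dorsal closure and the migration of the salivary gland and other internal organs. FoxL1, the forkhead transcription factor removed in the null embryos, is known for its part in placing the salivary gland.

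All values are log2 signals from robust multi-array averaging (RMA), the deposited unit, and all differences are null minus wild type. The targeted gene FoxL1 read 4.85, 5.12 and 5.01 on the wild-type arrays against 4.23, 4.35 and 3.37 on the null arrays, a difference of -1.01 (SE 0.25, limma adjusted p = 0.0489). That call was lost in 7 of 13 alternative fits, among them those with centred arrays and those that left out null array 1 or any single wild-type array (highest adjusted p 0.220). Array medians lay between 4.96 and 5.08 for wild type and between 4.87 and 4.94 for the null, so that every null median was the lower. Null array 3 stood apart from the others, where the actin probe sets that gauge RNA quality differed between the 3' and 5' end by 0.20, against 0.67 to 0.82 on the other arrays. It also had the lowest array weight, 0.317. On the GAPDH control probe sets it had the highest such difference, 0.62. On those of eIF4A it had the lowest, 0.71, against 0.88 to 0.93 on the other arrays. The members' differences are therefore also given without it.

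None of the 9 genes passed the threshold, an adjusted p of 0.05 over all probe sets in limma, a linear model that shares information on the spread between probe sets. Over the whole array 7.84% of the probe sets passed, and 10.2% of the genes by their highest probe set. At an unadjusted p under 0.05 there were 4 of the 9 genes, 2 higher in the null embryos (scb and Ilk) and 2 lower (mew and stck), while 27.1% of all genes reached that level. The null and wild-type values did not overlap for 4 of the 9 genes (mew, scb, Ilk and Vinc), against 31.9% of all genes. The median difference was -0.02 for the 9 genes and -0.07 for all genes, and the median absolute difference was 0.24 for the 9 genes and 0.19 for all genes. Of the 9 differences 5 were below 0, and 4 of 9 with arrays centred on their medians, where mys turned positive. Among 9 genes these shares rest on 4 genes each, 2 of them higher and 2 lower at the unadjusted level, and nothing particular to the group is read from them. All 11 probe sets read above the median of every array on all 6 arrays, so that a lower level had room to show.

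**Figure D1:**
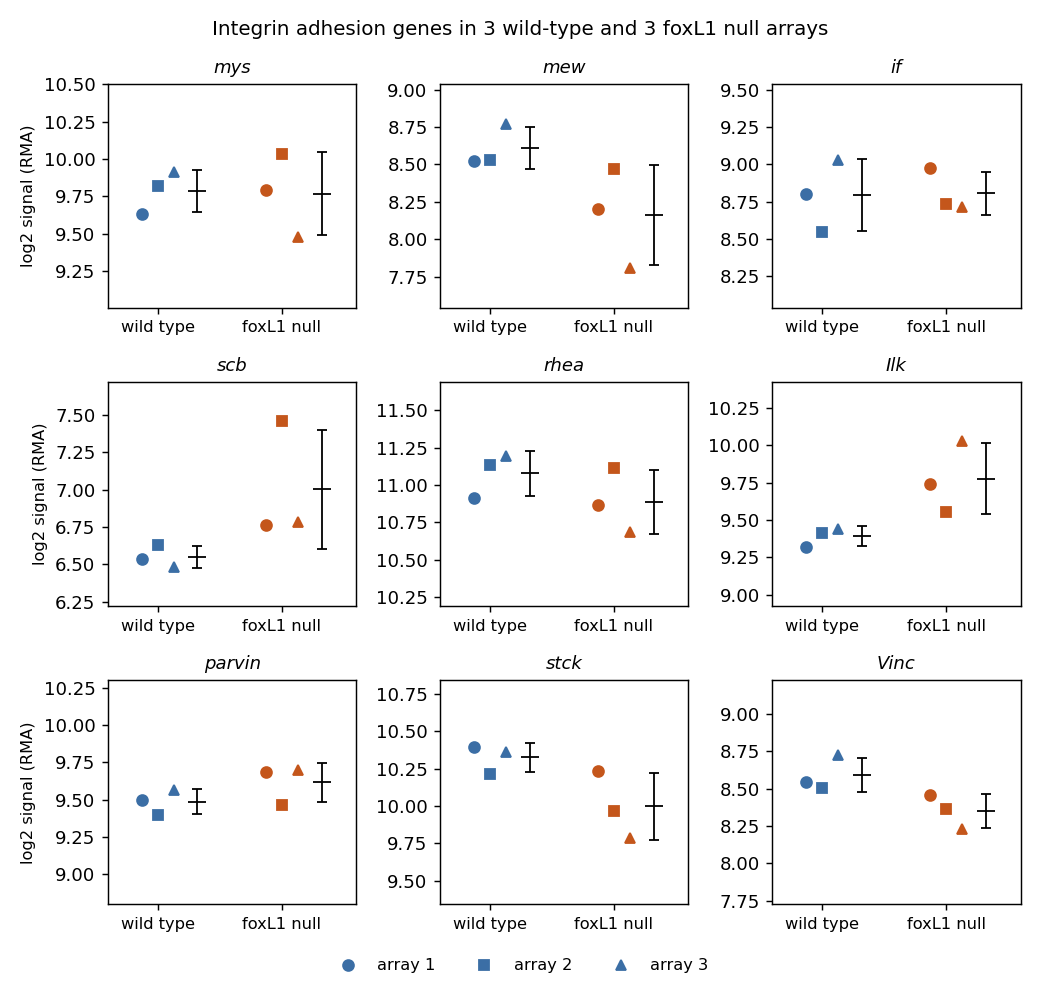
Log2 RMA signal of the 9 integrin adhesion genes by their highest probe set, in 3 wild-type (blue) and 3 foxL1 null (orange) arrays. The vertical axis spans the same range of 1.5 log2 units in each panel, and the black bars give mean ± SD (n = 3). The genotypes do not overlap for mew, scb, Ilk and Vinc, and the SD of the null values is the larger for all members but if and Vinc.

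The shared beta subunit gene mys did not pass with either of its probe sets. Its highest probe set read 9.63, 9.82 and 9.91 in wild-type arrays 1 to 3 and 9.79, 10.03 and 9.48 in null arrays 1 to 3, and the null values lay on both sides of the wild-type values. The difference was -0.02 (SE 0.16, 95% interval -0.39 to 0.35, limma adjusted p = 0.963). That probe set is of the kind Affymetrix marks with x, in which some probes may also match other sequences. The other mys probe set read 8.71, 8.99 and 9.13 on the wild-type arrays against 9.06, 9.16 and 9.14 on the null arrays, a difference of 0.18 (SE 0.13, interval -0.12 to 0.48, adjusted p = 0.500). The groups overlapped in both probe sets, and the differences had opposite signs.

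Of the alpha subunit genes, mew read lower in the null embryos, scb higher and if at nearly the same level, and none passed the threshold. The gene mew encodes the alpha subunit known from epidermal tendon cells and the endoderm. It read 8.53, 8.53 and 8.77 on the wild-type arrays against 8.20, 8.47 and 7.81 on the null arrays, so that every null value lay below every wild-type value, array 2 by the least. The difference was -0.45, a 1.36-fold lower level (SE 0.18, interval -0.86 to -0.04, adjusted p = 0.189). Its other probe set read 6.93, 7.01 and 6.91 against 6.57, 7.03 and 6.09, and there null array 2 lay above all wild-type arrays (difference -0.39, SE 0.22, adjusted p = 0.369). Without null array 3 the differences were -0.27 (adjusted p = 0.302) and -0.15 (0.635). Without null array 2 they were -0.60 (adjusted p = 0.0712) and -0.62 (0.0668). The size of the mew difference thus moved with the null array left out.

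The gene scb encodes the alpha subunit known from the heart, trachea, salivary gland and migrating midgut. It read 6.54, 6.63 and 6.48 on the wild-type arrays against 6.76, 7.46 and 6.79 on the null arrays. All null values were higher, but null array 2 stood well above the others. The difference was 0.45, a 1.37-fold higher level (SE 0.19, interval 0.01 to 0.90, limma adjusted p = 0.222). It was 0.22 without null array 2 (adjusted p = 0.314) and 0.56 without null array 3 (0.185). The gene if, which encodes the alpha subunit of the muscle side of the attachment site, read 8.80, 8.55 and 9.03 on the wild-type arrays against 8.97, 8.73 and 8.72 on the null arrays. These values overlapped throughout, and the difference was 0.01 (SE 0.15, interval -0.33 to 0.35, adjusted p = 0.976).

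The genes for the links from the beta tail to actin read slightly lower in the null embryos, and neither passed. The talin gene rhea read 10.91, 11.13 and 11.20 on the wild-type arrays against 10.86, 11.11 and 10.69 on the null arrays, a difference of -0.19 (SE 0.14, interval -0.52 to 0.14, limma adjusted p = 0.510). Its groups overlapped, and the difference was -0.09 without null array 3 and -0.07 with arrays centred on their medians. The vinculin gene Vinc read 8.55, 8.50 and 8.72 on the wild-type arrays against 8.45, 8.36 and 8.23 on the null arrays. All 3 null values were lower, by a small step: the difference was -0.24 (SE 0.11, interval -0.50 to 0.02, adjusted p = 0.269), and -0.18 without null array 3. With centred arrays the Vinc difference was -0.12. Its spread was alike in both groups, with an SD of 0.12 on the wild-type arrays against 0.11 on the null arrays.

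In the Ilk, PINCH and parvin complex, Ilk and parvin read higher in the null embryos and stck lower, and none passed. Ilk, which encodes the scaffold of that complex, read 9.32, 9.41 and 9.44 on the wild-type arrays against 9.74, 9.56 and 10.03 on the null arrays. Every null value was higher, array 3 the most. The difference was 0.38, a 1.31-fold higher level (SE 0.14, interval 0.07 to 0.70), and its adjusted p of 0.152 in limma was the lowest of the 9 genes. The gene stck, for the adaptor PINCH, read 10.40, 10.21 and 10.36 on the wild-type arrays against 10.24, 9.97 and 9.79 on the null arrays. Null array 1 lay within the wild-type range and the other null arrays lay below it, with a difference of -0.33 (SE 0.14, interval -0.65 to -0.01, adjusted p = 0.217). The actin-binding member parvin read 9.50, 9.40 and 9.56 against 9.68, 9.47 and 9.70, with overlap (difference 0.13, SE 0.11, interval -0.13 to 0.39, adjusted p = 0.573). Without null array 3 the differences were 0.26 for Ilk (adjusted p = 0.215), -0.22 for stck (0.357) and 0.09 for parvin (0.713).

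In the main fit the intervals bound how far these levels can have moved on this array. All 11 of the 95% intervals lay within a 2-fold change in either direction, from -0.89 (the lower probe set of mew, 1.85-fold lower) to 0.90 (scb, 1.86-fold higher). An interval without 0 was found for 4 of the 11 probe sets, those of mew, scb, Ilk and stck. These bounds hold for the main fit only, and intervals of the other fits are not given here. Without null array 3 the scb difference was 0.56 (SE 0.21). With no spread shared across probe sets the SE of the lower mew probe set was 0.27. The intervals are not adjusted for the number of probe sets, and RMA compresses differences, more so at low signal. A missed threshold does not show that the levels are equal. With 3 arrays in each group the smallest p of an exact permutation test is 0.1, so the p-values rest on limma's model of the spread.

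**Figure D2:**
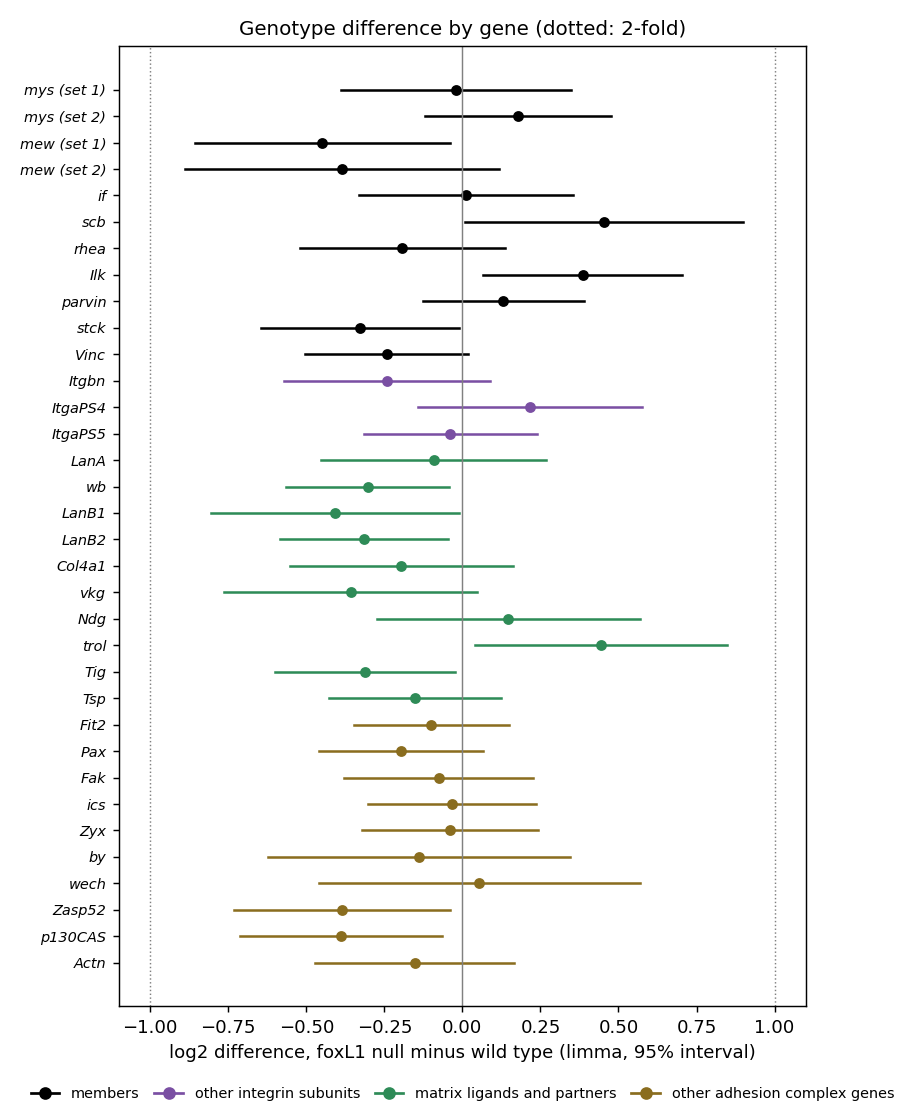
Log2 difference (null minus wild type) with its 95% interval from limma, for the 11 probe sets of the 9 members (black) and for the highest probe set of the other listed integrin subunits, matrix ligands and adhesion complex genes. Each line lies inside the dotted marks of a 2-fold change, and 4 of the 11 member intervals leave out 0.

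The calls were 0 of 9 genes under all 15 other settings tried as well. With the replicate number as a block 17.0% of all genes passed and 0 of the 9, and with array weights 17.0% and 0 of the 9. Without null array 3 the share was 10.6% of all genes, again with 0 of the 9. The lowest adjusted p over the settings was 0.0706 for mew and 0.0708 for Ilk, both with array weights, and 0.0778 for scb with the replicate block.

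Null array 3 often lay at the end of the range. It held the highest or the lowest of the 6 values for 7 of the 9 genes (lowest for mys, mew, rhea, stck and Vinc, highest for Ilk and parvin), while over all genes it held an extreme value for 48.8%. Against the wild-type mean, the median deviation of the 9 genes was -0.31 on null array 3, 0.01 on null array 1 and -0.02 on null array 2. The deviations on null array 3 were -0.80 for mew and -0.54 for stck, and 0.64 for Ilk. On null array 1, which had none of the extreme values, the same genes deviated by -0.40, -0.09 and 0.35, and scb by 0.21. These 4 genes kept their sign on all 3 null arrays, as did Vinc, while mys, if, rhea and parvin did not, and the stck value on null array 1 lay within the wild-type range. The part of RNA quality in these values was not tested.

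**Figure D3:**
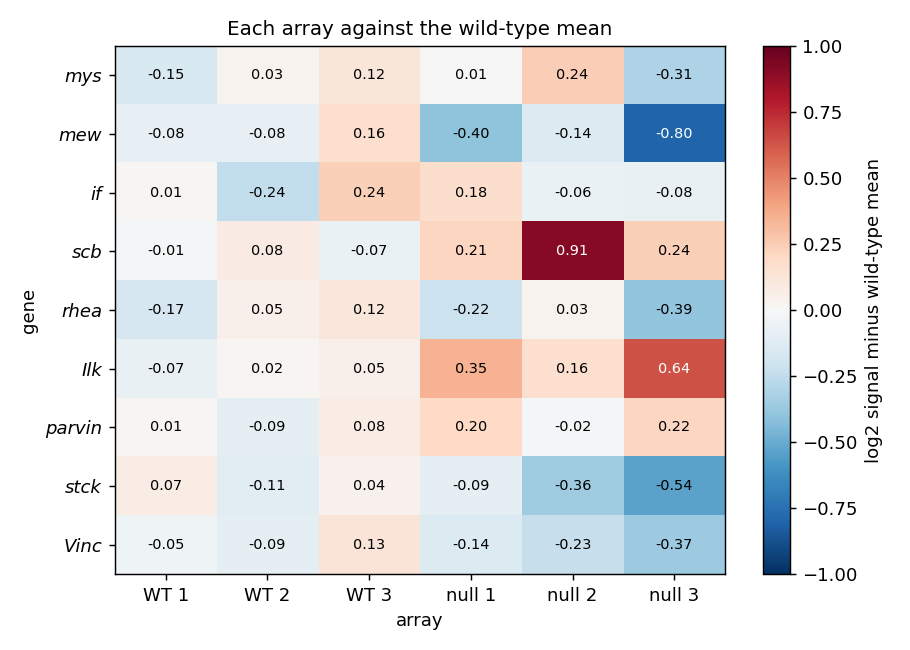
Log2 signal of each member on each array minus the mean of the 3 wild-type arrays, with the value written in each cell (red higher, blue lower). The strongest deviations are those of scb on null array 2 (0.91) and of mew on null array 3 (-0.80), and scb and Ilk are positive and mew, stck and Vinc are negative on all 3 null arrays.

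A ratio of members within an array cancels a shift shared by all signals of that array. They were computed for 11 pairs that bind each other or share a partner, chosen after the values had been seen. The sign of a ratio's level says nothing about amounts, since probe sets differ in brightness, and only its change between genotypes is read. The pairs reuse the same few genes, and the ratios therefore restate the members' differences and are given as a description, with no test.

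The members with the lowest and the highest difference were mew and scb, so that no ratio of members could change more than theirs. The ratio of mew to scb, which share the beta subunit, had the greatest change of the 11. It was 1.99, 1.90 and 2.29 on the wild-type arrays and 1.44, 1.01 and 1.02 on the null arrays (log2), a change of -0.90, or 1.87-fold. Leaving out any single array kept it between -1.05 and -0.79. The ratio of Ilk to stck was -1.08, -0.80 and -0.92 on the wild-type arrays against -0.50, -0.41 and 0.24 on the null arrays, a change of 0.71, and of 0.48 without null array 3. In both pairs all null arrays lay outside the wild-type range. The same held for mew to mys, scb to mys, mys to rhea, Ilk to parvin and stck to parvin. How often other pairs of genes do so was not computed, and nothing particular to these pairs is read from it. The ratio changed by -0.43 for mew to mys, by 0.47 for scb to mys, by -0.46 for stck to parvin and by -0.46 for mew to if. The change of Ilk to parvin was 0.25, and 0.17 without null array 3. That of mys to rhea was 0.17, but 0.11 after another quantile normalization and 0.27 with the mean of a gene's probe sets. For if to scb it was -0.44, but -0.17 without null array 2, -0.29 without wild-type array 3 and -0.65 without null array 1. The ratios of if to mys (0.03) and of rhea to Vinc (0.05) changed sign when single arrays were left out, with ranges of -0.11 to 0.20 and -0.05 to 0.12.

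**Figure D4:**
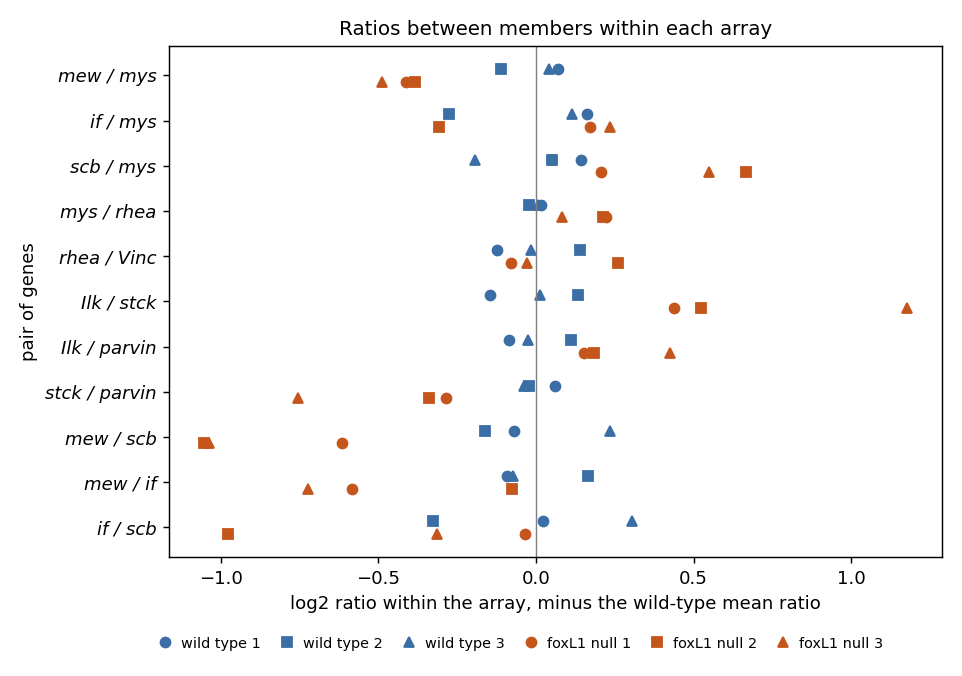
Log2 ratio of a pair of members within each array, minus the mean ratio of the 3 wild-type arrays (blue, wild type; orange, foxL1 null; marker shape, array number). The largest changes in the mean are those for mew over scb (-0.90) and Ilk over stck (0.71).

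The course of mys over the 6 arrays was most like that of 5 genes, taken by the highest Pearson correlation among 7739 genes whose mean signal lay above the 50th percentile of the probe sets. They were CG31224 (r = 0.990), tok (0.985), onecut (0.985), CG11035 (0.982) and beta-Spec (0.977), each with a difference between genotypes of -0.07 to 0.03. The correlation with mys was 0.85 for rhea, 0.69 for mew, 0.45 for scb, 0.42 for Vinc, 0.25 for stck and 0.17 for if. It was -0.49 for Ilk and -0.51 for parvin. Among the 7739 genes rhea had rank 248, mew rank 973 and scb rank 2220. These are descriptions of 6 arrays that share null array 3 as a low point of mys. Of the 9 members 5 lie on the X chromosome (mys, mew, if, parvin and Vinc). Among 1873 genes on the X chromosome 144 were higher and 68 lower at the threshold, with a median difference of -0.05. Over all 11982 genes 748 were higher and 479 lower, with a median of -0.07, and nothing particular to the X chromosome is read from these counts.

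The other genes of the pathway showed no call either by their highest probe sets. Of 3 further integrin subunit genes 0 passed, and 0 had an unadjusted p under 0.05. Itgbn, the second fly beta subunit gene, read 7.45 ± 0.21 on the wild-type arrays and 7.21 ± 0.16 on the null arrays (SD, n = 3 each, limma difference -0.24, SE 0.14, adjusted p = 0.396). ItgaPS4 and ItgaPS5 were close to the lowest signals measured, at 2.31 and 3.13 on the wild-type arrays, so that a fall could hardly show there.

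Matrix genes that integrins bind or depend on read lower in 8 of 10 cases, though 0 of 10 passed and 5 of 10 had an unadjusted p under 0.05 (4 lower and 1 higher). Of all 11982 genes 7189 read lower and 27.1% had such a p, and nothing particular to the matrix genes is read from their counts. Their median difference was -0.25, against -0.07 for all genes. With arrays centred on their medians 7 of 10 read lower, the median was -0.13, and that of all genes was 0.05. The laminin gamma chain gene LanB2 read 10.84, 10.90 and 10.93 on the wild-type arrays against 10.66, 10.68 and 10.38 on the null arrays (difference -0.32, SE 0.12, limma adjusted p = 0.163). The alpha chain gene wb read 8.08, 8.19 and 8.27 against 7.83, 8.02 and 7.77 (-0.30, SE 0.11, adjusted p = 0.166). In both genes all null values lay below the wild-type values. A lower probe set of 2 matrix genes did pass, and they are named here after their values were seen. That of Tsp, the thrombospondin that tendon cells secrete, read 6.26, 6.25 and 6.39 on the wild-type arrays against 5.66, 5.43 and 5.52 on the null arrays (-0.76, SE 0.11, adjusted p = 0.00602). For the highest Tsp probe set the difference was -0.15 (SE 0.12, adjusted p = 0.540), so that the probe sets disagree on the size of the change. The call of the lower Tsp probe set held when any single array was left out, with adjusted p of 0.0162 to 0.0381. For trol, the perlecan gene, a probe set near the floor went from 2.58 to 3.33 (0.75, SE 0.14, adjusted p = 0.0171). The call of this trol probe set ended without wild-type array 2 or 3 (adjusted p = 0.0657 and 0.0807), and the other 7 trol probe sets did not pass, with differences of -0.14 to 0.44.

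Among 14 other genes of the adhesion complex 10 had a probe set of their own, and 0 of these 10 passed. They comprise the kindlin gene Fit2 and genes for paxillin (Pax), focal adhesion kinase (Fak), zyxin (Zyx), tensin (by), alpha-actinin (Actn), ics, wech, Zasp52 and p130CAS. Of the 10 genes 9 read lower in the null embryos, with a median of -0.12, and 2 had an unadjusted p under 0.05. Of all 11982 genes 7189 read lower, with a median of -0.07, and 27.1% had such a p. The direction depended on the scaling: with arrays centred on their medians 5 of the 10 read lower and 5 higher. Of all genes 5038 then read lower and 6944 higher, and nothing particular to the 10 genes is read from these counts. The scaffold gene p130CAS read 7.78, 7.92 and 7.89 on the wild-type arrays against 7.59, 7.64 and 7.20 on the null arrays (-0.39, SE 0.14, limma adjusted p = 0.153). Zasp52, which encodes a protein of muscle attachments and Z-discs, read 9.15, 8.85 and 9.34 against 8.90, 8.65 and 8.64 (-0.39, SE 0.15, adjusted p = 0.183), with overlap. Fit1, Src42A, Src64B and Rap1 were not analysed here.

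Cell types that use these integrins were checked by marker genes. Beside the counts below, 10.2% of all 11982 genes passed in the main fit, 748 of them higher and 479 lower. Of 7 measured muscle genes 0 passed, and their mean log2 signal ran from 10.3 to 10.9 on the wild-type arrays and from 10.3 to 10.7 on the null arrays. Of 4 tendon cell genes 0 passed (7.62 to 7.78 against 7.33 to 7.75), and likewise 0 of 5 epidermal genes (8.36 to 8.91 against 8.41 to 8.93). Among blood cell genes, the source of much embryonic matrix, 0 of 8 passed (6.27 to 6.40 against 6.14 to 6.21), with Pxn, the peroxidasin gene, at -0.36 (SE 0.10, limma adjusted p = 0.0620). In that list 5 of 8 read lower and 3 higher, the latter being Hml (0.28, SE 0.30, limma adjusted p = 0.666), eater (0.02) and He (0.01). The blood cell count was 2 of 8 with array weights (Pxn and srp) and 2 of 8 without null array 2 (crq and srp). Genes of the amnioserosa and the visceral mesoderm passed in part. In the amnioserosa list 4 of 7 fell, among them zen (-0.98, SE 0.15, adjusted p = 0.00932) and Doc3 (-0.90, SE 0.17, adjusted p = 0.0193), and the mean signal went from 7.18 to 7.48 on the wild-type arrays to 6.60 to 6.89 on the null arrays. The count was 1 of 7 (zen) without wild-type array 1, wild-type array 2 or null array 1, and 0 of 7 with no spread shared across probe sets. The other amnioserosa genes did not pass in the main fit. Of these peb read slightly higher (0.06, SE 0.17, limma adjusted p = 0.882). Lower readings were those of tup (-0.17, SE 0.24, adjusted p = 0.752) and ush (-0.51, SE 0.14, adjusted p = 0.0795). In the visceral mesoderm list 1 of 4 fell, bap (-0.52, SE 0.13, adjusted p = 0.0498), with mean signals of 6.02 to 6.08 against 5.69 to 5.79. The call of bap was lost with centred arrays (adjusted p = 0.108) and when any single array but null array 1 was left out (0.0940 to 0.167). Of 7 transcripts known as maternal 5 rose, among them tor (2.48, SE 0.12, adjusted p = 0.000116) and plu (1.88, SE 0.15, adjusted p = 0.000983), with mean signals of 6.37 to 6.72 against 7.77 to 8.03. The other members of that list, osk and png, read lower (-0.62, SE 0.26, adjusted p = 0.216, and -0.41, SE 0.12, adjusted p = 0.0978), and both passed as lower with array weights and without null array 2. The part of any of these in the members' values was not tested.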

How the data were processed

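The authors deposited log2 expression values of 6 arrays, made with Partek and RMA per the submitters' processing notes, which give no versions. RMA corrects background, sets arrays to a shared distribution and summarises probes, and so takes out much of any shift common to most transcripts. A difference in array medians between the genotypes remained in the deposited values. Control probe sets (183 of 18952) were left out. Genes were named from GEO's platform annotation, and 13544 of 13647 single-gene probe sets had a symbol that was current in, or updated from, the gene table of RefSeq, whose assembly is Release 6 plus ISO1 MT. That table served for names and chromosomes. Its coordinates were not used, since no source used here names the build behind the array's annotation.

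The difference between genotypes came from limma 3.58.1 (lmFit, then eBayes; R 4.3.3), with no covariate, 2-sided, with Benjamini-Hochberg adjustment over all 18769 probe sets. The step was tested on simulated data with independent noise and no array effects, so that test does not cover arrays that differ in quality. The members and lists were chosen with earlier results of these data known. The kindlin genes, listed at first as Fermt1 and Fermt2, were looked up as Fit1 and Fit2, the symbols of the annotation, once the tables had been seen. Named besides the members are FoxL1 and pathway genes past the threshold or at most 2 per list by smallest p. Per cell type list at most 2 are named by smallest p, besides genes that did not pass in the main fit. Alternatives were a replicate block, each array left out, another quantile normalization, median centring, eBayes with trend and robust, array weights, no shared spread, filters at the 25th and 50th percentiles of signal, and the mean of a gene's probe sets. The titles number the arrays 1 to 3 in each genotype. The main fit took the arrays as unpaired. Deviations of same-numbered arrays from their group means correlated at 0.108, 0.544 and 0.224. On these data alone, the alternative fit with the replicate block took the numbers as pairs. Wild-type array 1 correlated more with null array 3 (0.266) than with null array 1, which weakens that pairing.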

Additional observations from a re-analysis of the deposited data

How the results depend on the processing

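The count of 0 members past the threshold was the same under all 15 alternatives, and so were the counts of 0 for the other integrin subunits and the other adhesion complex genes. For the matrix genes 1 gene, Tsp, passed as lower when the probe sets of a gene were averaged. Over the whole array 1472 probe sets passed, 2441 with the replicate block, 2460 with array weights and 562 with no spread shared across probe sets. Leaving out an array gave 663 to 1513. The replicate block changed no member's call.

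The direction of mys reversed to 0.016 after another quantile normalization, to 0.10 with centred arrays and to 0.079 with the mean of its probe sets, and it ran from -0.15 to 0.13 with an array left out, positive without wild-type array 3 (0.04) or null array 3. That of if ran from -0.11 to 0.13 with an array left out, and was negative without wild-type array 2 or null array 1. The other 7 members kept their direction under every alternative. Centring moved the median of all probe sets from -0.03 to 0.09. With it the differences of mew and stck were -0.33 and -0.21, and those of scb, Ilk and parvin were 0.57, 0.50 and 0.25. The call of Doc3 was lost without wild-type array 1, wild-type array 2 or null array 1 (adjusted p of 0.0573 to 0.0773) and with no shared spread (0.1305). For these shifts the cause was not tested. The 3 arrays in each group limit the precision of every value.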
